A study of Schizosaccharomyces pombe with 2 samples.

Results

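The 10 genes described here encode 5 ribosomal proteins of fission yeast (Schizosaccharomyces pombe), each from a pair of paralogous genes. They are rpl301 and rpl302 for L3, rpl401 and rpl402 for L4, rpl501 and rpl502 for L5, rps101 and rps102 for S1, and rps601 and rps602 for S6. The genes were selected by name, with no threshold on a measured value, and all 10 were found among the 12684 annotated features of the count table. They belong to 138 genes for cytosolic ribosomal proteins, which the RefSeq gene symbols group into 77 proteins. Of these proteins 21 had 1 gene, 51 had 2 copies and 5 had 3 copies, so the 5 pairs stand beside 46 other 2-copy families.

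The RNA came from 1 group of 2 biological replicates, so no condition is set against another. The cells were haploid h- cells with the genotype leu1-32, pat1-L95G::kanR, labelled vegetative and wt, and were grown for 2 days at 30 °C in the minimal medium EMM. Every library therefore carries the pat1-L95G allele of the Pat1 kinase, which represses meiosis, and no library without it was included. Total RNA was depleted of rRNA, given a poly(A) tail in vitro and read directly on nanopores (kit SQK-RNA004), 1 read per captured molecule or fragment, starting at its 3′ end. The 2 libraries held 12871729 and 12579850 reads assigned to features. Across the whole table the mating-type labels held, since the 5 h- genes mfm1, mfm2, mfm3, mam1 and mam2 had 567 to 4405 reads in replicate 1 and 577 to 4270 in replicate 2, against 2 and 0 reads of the h+ gene map2 and 9 and 14 of map3. The 4 meiotic genes mei4, ssm4, spo5 and mug20 had between 6 and 30 reads. All 138 ribosomal protein genes together took 39.86% ± 0.805 of the reads of protein-coding genes (SD, n = 2), and the 10 paralogues took 2.41% ± 0.0572.

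Each ribosome carries a single copy of each of these proteins, so that cells need them in equal numbers. Many ribosomal protein genes of yeasts are duplicated, and both copies feed the same pool of protein. L3 lies near the peptidyl transferase centre of the large subunit, L4 reaches into the exit tunnel, and L5 binds the 5S rRNA together with L11. S1 (eS1) sits near the mRNA exit of the small subunit, and S6 is the small-subunit protein phosphorylated by kinases downstream of TORC1.

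All 10 genes lacked introns, against 40 of the 92 genes in the other 2-copy families (43.48%). Their transcripts were also long for the class, with a median exon length of 1068 nt against 597 nt in those 92 genes. By coding length the rpl301 and rpl302 genes, at 1167 nt, ranked 1 among the 138 genes, the L4 genes 3, the L5 genes 6, the S1 genes 18 and the S6 genes 23. Coordinates below are those of assembly ASM294v3, which the deposited start and end matched for all 10. On chromosome I lie rpl301 (SPAC17A5.03, 1756085-1757330, plus strand), rpl302 (SPAPB8E5.06c, 4917555-4919027, minus), rpl501 (SPAC3H5.12c, 3410945-3411881, plus), rps101 (SPAC13G6.02c, 174865-175784, minus), rps102 (SPAC22H12.04c, 898045-898962, minus), rps601 (SPAC13G6.07c, 186314-187583, minus) and rps602 (SPAPB1E7.12, 3319250-3320060, plus). On chromosome II lie rpl401 (SPBC1711.06, 2143120-2144391, plus), rpl402 (SPBP8B7.03c, 3636475-3637673, minus) and rpl502 (SPBC11C11.09c, 3364710-3365644, minus). No annotated feature overlapped any of them on its own strand. The 9 antisense lncRNAs that overlapped 6 of them had 0 or 1 read each in either library.

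How well reads of the copies can be told apart depends on their sequence, and the pairs differed widely in it. The rpl301 and rpl302 coding sequences were 96.32% identical and shared an unbroken stretch of 848 nt, which ended 62 nt before the 3′ end of the rpl301 transcript and 277 nt before that of rpl302. Of all windows of 100 nt in the rpl301 transcript, 65.3% occurred letter for letter in rpl302, and 54.51% of those in rpl302 occurred in rpl301. No such window was shared in the other 4 pairs, whose longest common stretch was 41 nt (rpl4), 80 nt (rpl5), 32 nt (rps1) and 26 nt (rps6). The last 60 coding bases are shown for the closest pair, L3, and for the most diverged pair, S1, with the letters that differ within a pair in capitals. They differ at 1 position in L3 and at 15 positions in S1.
rpl301, chromosome I, 1757216-1757275, plus strand: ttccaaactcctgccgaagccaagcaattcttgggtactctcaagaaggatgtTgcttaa
rpl302, chromosome I, 4917825-4917884, minus strand: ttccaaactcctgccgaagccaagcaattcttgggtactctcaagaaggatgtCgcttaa
rps101, chromosome I, 175013-175072, minus strand: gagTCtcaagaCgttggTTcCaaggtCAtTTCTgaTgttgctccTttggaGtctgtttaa
rps102, chromosome I, 898191-898250, minus strand: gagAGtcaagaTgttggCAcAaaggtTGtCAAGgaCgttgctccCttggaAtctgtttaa

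The 3′ untranslated regions differed between the copies in every pair. Over the columns of a global alignment, gaps included, identity was 15.19% for L3, 32.32% for L4 and 40.43% for L5. It was 48.19% for S1 and 11.89% for S6. Gaps lower the value where lengths differ, as in L3 (55 and 270 nt) and S6 (530 and 81 nt). The values thus do not rank the pairs by divergence. In L3 the shared stretch ended before these regions, so a read that starts at the natural 3′ end begins outside it. A read that lies wholly within that stretch cannot be assigned by sequence. How the authors counted reads with several mapping positions is not given in the sources used here, so the split of the L3 pair is less certain than that of the other 4. The median read length that the paper gives for both runs is shorter than the shared L3 stretch.

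The encoded proteins were nearly the same in 4 pairs. A single residue of 388 differed between the L3 copies and a single residue of 294 between the L5 copies. The S6 copies differed at 3 of 239 residues and the L4 copies at 11 of 363, while the S1 copies differed at 24 of 252 and were 90.48% identical. Most codon differences were silent, namely 41 of 42 for L3, 96 of 107 for L4, 50 of 51 for L5, 96 of 120 for S1 and 80 of 83 for S6. The median protein identity was 98.74% over the 5 pairs and 97.1% over the other 46 families.

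Promoters of ribosomal protein genes in this yeast are known for the HomolD box, which stands in for a TATA box, and for the HomolE box, made of tandem ACCCT repeats. Windows from 250 bases before to 50 after the annotated start were searched on both strands. The HomolD box, spelled CAGTCACA, was found in 7 of the 10 genes (70%), in 88 of the 138 ribosomal protein genes (63.77%) and in 137 of 5112 protein-coding genes (2.68%). The other 3 genes, rpl302, rpl402 and rps101, each held CAGTCACG, beginning 49 or 50 bases before the start, a spelling searched for only after these promoters had been read. CAGTCACG stood in 31 of the 138 ribosomal protein promoters (22.46%) and in 63 of 5112 (1.23%). The first 7 letters, CAGTCAC, which overlap both spellings, were thus in all 10 genes, in 91.3% of the ribosomal protein genes and in 4.71% of all.

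The promoters of the L4 and S1 pairs are printed because these are the pairs with the most unequal copies, and those of the L3 pair because it also mixes both spellings. Each run is the 100 bases before the start of the transcript, with HomolD letters (at least CAGTCAC or its complement) and HomolE boxes in capitals.
rpl301, chromosome I, 1755985-1756084, plus strand: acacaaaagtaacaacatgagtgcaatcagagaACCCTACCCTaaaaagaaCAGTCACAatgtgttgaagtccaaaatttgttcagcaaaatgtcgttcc
rpl302, chromosome I, 4919028-4919127, minus strand: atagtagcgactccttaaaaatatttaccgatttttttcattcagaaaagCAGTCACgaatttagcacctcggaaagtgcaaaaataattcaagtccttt
rpl401, chromosome II, 2143020-2143119, plus strand: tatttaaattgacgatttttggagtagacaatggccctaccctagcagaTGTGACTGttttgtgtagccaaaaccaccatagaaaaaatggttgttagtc
rpl402, chromosome II, 3637674-3637773, minus strand: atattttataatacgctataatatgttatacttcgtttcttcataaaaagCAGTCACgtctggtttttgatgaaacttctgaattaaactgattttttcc
rps101, chromosome I, 175785-175884, minus strand: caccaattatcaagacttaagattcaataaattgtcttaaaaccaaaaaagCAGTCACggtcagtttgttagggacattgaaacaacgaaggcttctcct
rps102, chromosome I, 898963-899062, minus strand: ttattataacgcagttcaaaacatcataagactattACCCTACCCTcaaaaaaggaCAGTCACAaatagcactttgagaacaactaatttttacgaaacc

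The HomolE box was found in rpl301, rpl502, rps102 and rps602, that is 4 of 10 genes (40%), against 41 of 138 ribosomal protein genes (29.71%) and 64 of 5112 (1.25%). In each of these 4 it lay upstream of the HomolD box, and in the same orientation. In this exact spelling it was in 1 copy of the L3, L5, S1 and S6 pairs and in neither copy of L4. The rpl401 promoter printed above holds gccctaccct, which differs from it by 1 letter. Unlike for the HomolD box, no other spelling of the HomolE box was searched for. The higher copy by reads carried it in L3 (rpl301) and S1 (rps102), and the lower copy in L5 (rpl502) and S6 (rps602). Per kb of exon rps602 was instead the higher S6 copy, while the higher copy of the other pairs stayed the same. The letters TATAAA were in 4 of 10 genes (40%), 27.54% of ribosomal protein genes and 48.12% of all protein-coding genes. A match describes these letters only, and its part in any level was not tested.

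**Figure D1:**
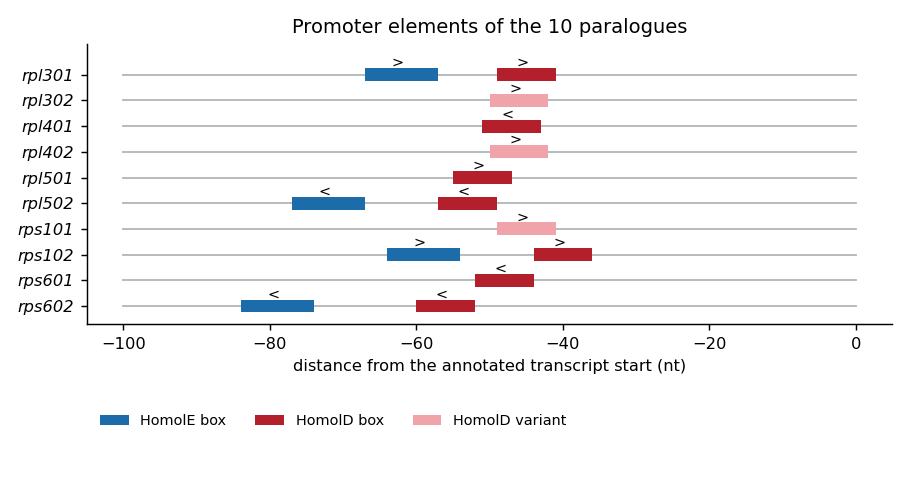
Position of HomolD boxes (red), the HomolD spelling that ends in G (pink) and HomolE boxes (blue) in the 100 bases before the annotated start of each gene, with the distance from the start in nt on the x axis. Arrowheads give the orientation relative to the gene, and every gene has a HomolD-type element that begins between -60 and -44.

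The L3 pair was read mostly from its first copy. In replicates 1 and 2, rpl301 had 8324 and 7881 reads and rpl302 had 5951 and 5555. The share of rpl301 was 58.31% (exact 95% interval 57.5 to 59.12) in replicate 1 and 58.66% (57.82 to 59.49) in replicate 2, a mean of 58.48% ± 0.243 (SD, n = 2). Thus rpl301 was higher in both libraries, by 1.4-fold and 1.42-fold, and the log2 ratio of rpl301 over rpl302 was 0.49 ± 0.0387 (SE, edgeR quasi-likelihood test over 51 families, adjusted p = 8.43e-09). These intervals cover counting error only. Because the rpl302 transcript is annotated with a longer 3′ untranslated region (270 nt, against 55 nt in rpl301), the rpl301 share was larger per kb of exon, 62.48% ± 0.235.

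The L4 pair was far more unequal, and in the other direction. The reads of rpl401 were 3130 and 2974, against 8387 and 8048 of rpl402. The share of rpl401 was 27.18% (26.37 to 28.0) and 26.98% (26.16 to 27.82), or 27.08% ± 0.138, so that rpl402 gave 72.92% of the pair. The log2 ratio of rpl401 over rpl402 was -1.43 ± 0.0216 (edgeR, adjusted p = 8.02e-23), where the SE is the counting error, since that of the model was smaller (0.00851). The adjusted p comes from the model with its smaller SE, so it overstates the evidence. The rpl401 copy was the lowest of the 10 genes and rpl402 lay by reads in a group of 3 below rps102, with rpl301 and rps101, whose exact Poisson intervals overlapped from 1 gene to the next, with ranks 130 and 131 for rpl401 and 74 and 76 for rpl402 among the 138 genes. Per kb the rpl401 share was 25.93%.

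The L5 copies were close to equal. Replicate 1 had 7161 reads of rpl501 and 6499 of rpl502, and replicate 2 had 7082 and 5917. The rpl501 share was 52.42% (51.58 to 53.26) in replicate 1 and 54.48% (53.62 to 55.34) in replicate 2, which do not overlap. Its mean was 53.45% ± 1.46, the widest spread among the 5 pairs, and the log2 ratio of rpl501 over rpl502 was 0.20 ± 0.0344 (edgeR, adjusted p = 5.91e-05). The transcripts differ by only 2 nt in length (937 against 935), and the share per kb was 53.4%.

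The S1 pair was unequal to nearly the same degree as L4. For rps101, 8039 and 7928 reads were counted, against 21104 and 19734 for rps102. The rps101 share was 27.58% (27.07 to 28.1) and 28.66% (28.13 to 29.2), or 28.12% ± 0.761, with a log2 ratio of rps101 over rps102 of -1.35 ± 0.0658 (edgeR, adjusted p = 2.19e-11). Here the level of rps102 set the pair apart. It ranked 3 among the 138 ribosomal protein genes in both libraries, and 12 and 13 among all protein-coding genes. In CPM (reads per 1000000 assigned reads) it was at 1640 and 1569, which is 2.52 and 2.45 times the next of the 10 genes, while rps101 (624.5 and 630.2) lay within the range of the other 8 (243.2 to 651.6 and 236.4 to 639.8). Per kb of exon, rps102 was at 1786 and 1709 CPM and ranked 42 and 44 among all protein-coding genes, and rps101 was at 678.9 and 685.0 CPM and ranked 131 and 130. The exons of both copies are about equally long (920 and 918 nt), and the rps101 share per kb was 28.08%.

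The S6 pair is the only one of the 5 in which the scale decided which copy was higher, as it was in 2 of the other 46 families. Reads of rps601 numbered 7569 and 7036, against 6554 and 6325 of rps602. The share of rps601 was 53.59% (52.77 to 54.42) and 52.66% (51.81 to 53.51), or 53.13% ± 0.66, with a log2 ratio of rps601 over rps602 of 0.18 ± 0.0374 (edgeR, adjusted p = 0.000325). Annotated 3′ untranslated regions are 530 nt in rps601 and 81 nt in rps602. Per kb of exon the rps601 share was 41.99% ± 0.645 and the log2 ratio -0.47 (edgeR with exon length as offset, adjusted p = 1.08e-08), so rps602 was the higher copy on that scale. In direct RNA sequencing a whole molecule gives 1 read whatever its length, whereas fragments tailed in vitro add reads along it, and the table does not tell these apart. The median length that the paper gives for all reads of both runs is shorter than either S6 transcript. Read lengths at these genes were not examined.

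**Figure D2:**
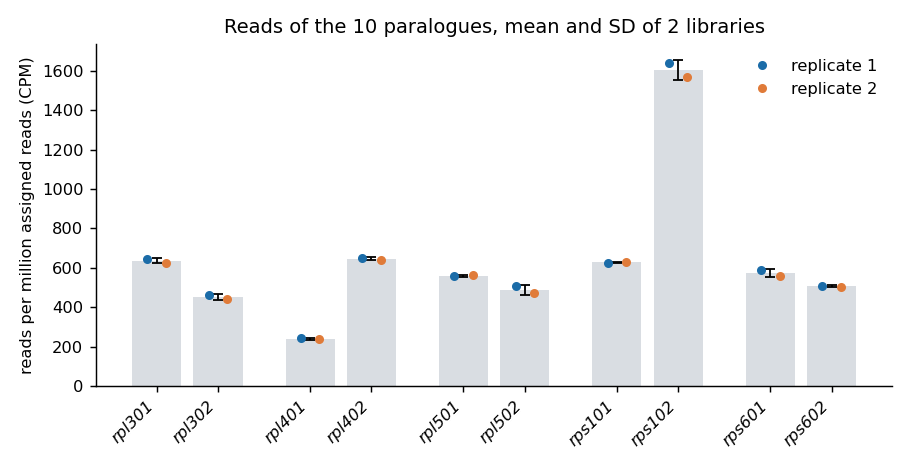
Reads per 1000000 assigned reads (CPM) of the 10 genes, with bars for the mean, error bars for the SD and points for the 2 libraries. The rps102 bar stands at 1604 CPM and the other 9 lie between 239.8 and 645.7.

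All 5 pairs differed between copies at an adjusted p of 0.05, in a class where this was the rule: edgeR called 48 of the 51 families (94.1%). The size of the difference was also ordinary. The higher copy held a median of 58.48% over the 5 pairs, against 61.89% over the other 46 families, where it ranged from 50.16% to 96.31%. In the order of unevenness over the 51 families, rpl4 ranked 14, rps1 15, rpl3 30, rpl5 43 and rps6 44. More than 70% came from 1 copy in 2 of the 5 pairs and in 14 of the other 46 families. The most uneven families were those of L30 (rpl3001, 96.31% of the pair), L34 (rpl3401, 94.34%) and L1 (rpl101, 91.91%). By reads the most even were S10 (rps1001, 50.16%, edgeR adjusted p = 0.622), L12 (rpl1201, 50.71%, adjusted p = 0.499) and S12 (rps1201, 51.39%, adjusted p = 0.186), the 3 families not called. The L12 copies shared a stretch of 485 nt and 84.1% of the 100-nt windows of rpl1201, so their split is uncertain, as in L3. Per kb of exon the rps1001 share was 38.8% and the rpl1201 share 55.15%, and both families were called (edgeR with exon length as offset, adjusted p = 3.07e-15 and 0.0001625). The rps1201 share was 49.42% in replicate 1 and 53.36% in replicate 2, so its higher copy changed.

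**Figure D3:**
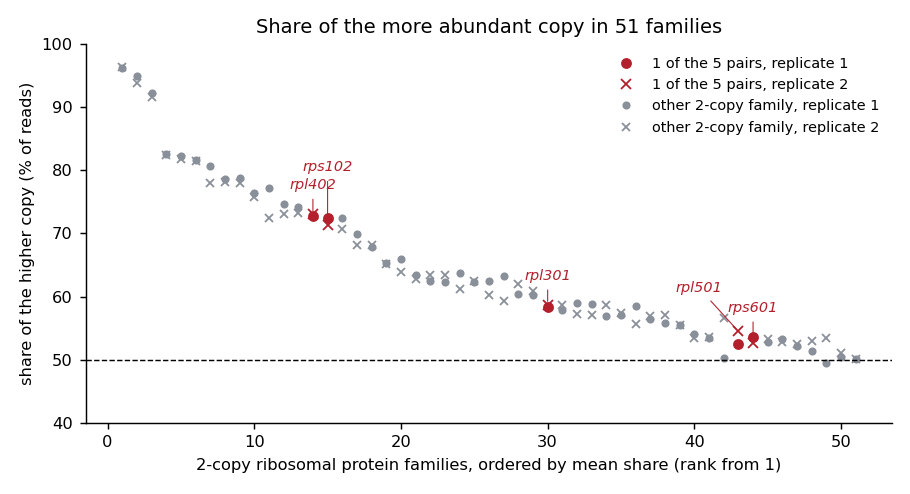
Share of the more abundant copy, in % of the reads of its family, for the 51 2-copy families in order of the mean share, with dots for replicate 1, crosses for replicate 2 and the 5 pairs in red. The dashed line marks equal copies, and rpl402 and rps102 stand above 70% while rpl501 and rps601 lie near 53%.

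Between the libraries, the share of the first copy moved by more than counting error in 2 of the 5 pairs, against 20 of the 51 families (39.2%) by Fisher's exact test, two-sided, with Benjamini-Hochberg adjustment. The rpl501 share was 2.06 percentage points lower in replicate 1 (adjusted p = 0.0026, Fisher's exact test) and the rps101 share 1.08 points lower (adjusted p = 0.0112, Fisher's exact test). For L3, L4 and S6 the adjusted p was 0.688, 0.817 and 0.23 by Fisher's exact test. These tests compare the libraries and not conditions.

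Single genes were compared in the same way, with the exact binomial test (two-sided) on reads of replicate 1 over those of replicate 2. Called were 2 of the 10 genes, against 283 of 6752 features (4.19%) and 64 of the 138 ribosomal protein genes. Both were second copies and higher in replicate 1, rpl502 by 0.10 on the log2 scale (adjusted p = 0.00305, exact binomial test) and rps102 by 0.06 (adjusted p = 0.000376, exact binomial test). Log2 differences of the other 8 lay between -0.02 and 0.07. The count rests on the scaling. Under TMM scaling 7 of the 10 were called, all higher in replicate 1, against 313 of 6752 features (4.64%) and 98 of the 138 ribosomal protein genes, 90 of which were higher in replicate 1. Scaled by DESeq2 size factors, 6 of the 10 were called, all higher in replicate 1, against 308 of 6752 features (4.56%) and 97 of the 138 genes, 89 of them higher in replicate 1. Scaled by the library totals, the median log2 difference was 0.04 for the 10 genes and for all ribosomal protein genes, and -0.06 over all features tested. Under TMM scaling these medians were 0.106, 0.105 and 0.0033, and with DESeq2 size factors 0.102, 0.102 and 0.00014.

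Compared per length, the 10 genes ordered differently from their reads. In CPM per kb of exon, rps102 was at 1747 ± 54.6, rps101 at 681.9 ± 4.36, rps602 at 623.9 ± 5.57 and rpl501 at 597.3 ± 5.0 (SD, n = 2 each). There followed rpl402 at 538.5 ± 6.98, rpl502 at 521.5 ± 26.1, rpl301 at 510.9 ± 11.5, rps601 at 451.7 ± 16.0, rpl302 at 306.8 ± 9.96 and rpl401 at 188.5 ± 3.76. On this scale rpl402 and rpl502, and rpl502 and rpl301, lay within their spread of each other, while every other pair of neighbours stood further apart than their SDs.

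The balance between the 5 proteins was judged from the reads of both copies together. The S1 pair had 29143 and 27662 reads, L3 had 14275 and 13436, S6 had 14123 and 13361, L5 had 13660 and 12999, and L4 had 11517 and 11022. The order was the same in both libraries, but the exact Poisson intervals of L3 and S6 and of S6 and L5 overlapped in each. As shares of the 5 pairs together, S1 took 35.24% ± 0.0109, L3 17.19% ± 0.097, S6 17.05% ± 0.0346, L5 16.54% ± 0.035 and L4 13.98% ± 0.0857 (SD, n = 2), where equal totals would give each protein the same share. S1 thus stood apart at 2.06 and 2.07 times S6, the other small-subunit protein, and the 4 remaining proteins lay within 1.24-fold of each other in replicate 1 and 1.22-fold in replicate 2.

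L4 and S1 had nearly the same split, yet S1 had the highest total and L4 the lowest. By reads, rps101 and rpl402 were at 627.4 ± 4.01 and 645.7 ± 8.37 CPM, so that their partners made the difference between the totals, with 1604 ± 50.1 CPM for rps102 and 239.8 ± 4.78 for rpl401.

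The coefficient of variation of the totals (SD over mean across proteins) was 43.1% in both libraries for the 5 proteins, against 36.47% and 35.12% for all 77 proteins and 26.21% and 27.07% for the other 46 2-copy families. By reads the value for the 5 proteins rested on S1: without that pair, a choice made after seeing the data, it was 9.25%. Per kb of exon the 5 proteins were at 55.83%, and at 20.54% without S1, against 62.5% for all 77 proteins and 56.99% for the other 46 families. By reads the 5 proteins thus varied more than both sets, and per kb of exon less than all 77 proteins. Against the other 46 families (55.02% and 58.95% per kb of exon) the order differed between the libraries, with the 5 proteins at 55.86% and 55.8%. Per kb of span the 5 proteins were at 55.83%, above the 51.53% of those families. Per kb of exon S1, L5, S6, L3 and L4 were at 2429 ± 50.2, 1119 ± 21.1, 1076 ± 21.6, 817.7 ± 21.4 and 727.0 ± 10.7 CPM per kb. On this scale L5 was above S6, by just more than their SDs, and L3 below both, so the order of these 3 turned with the scale, while S1 was highest and L4 lowest on both.

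**Figure D4:**
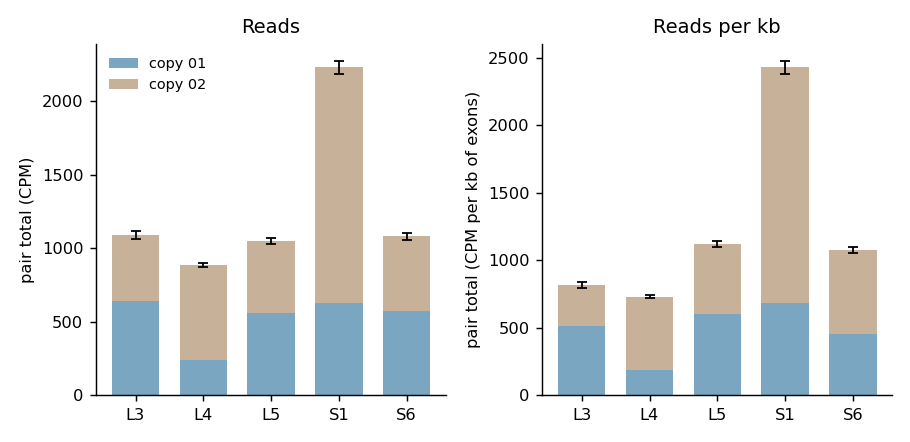
Pair totals of the 5 proteins as reads (left, CPM) and as reads per kb of exon (right, CPM per kb), means of 2 libraries, stacked by copy with the copy ending in 01 at the bottom and error bars for the SD of the total. S1 stands at 2232 CPM and the other 4 between 885.5 and 1089.

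Among all 77 ribosomal proteins, 4 of the 5 stood in the lower part by reads. S1 ranked 6 in replicate 1 and 5 in replicate 2, L3 ranked 56 and 57, S6 58 and 59, L5 61 and 62, and L4 71 and 72. Relative to the median protein, S1 was at 1.8, L3 at 0.879, S6 at 0.872, L5 at 0.845 and L4 at 0.715. Per kb of exon these 4 lay further below the median and S1 nearer to it. L5 was at 0.528, S6 at 0.508, L3 at 0.386 and L4 at 0.343 of the median, with ranks 70, 71, 73 and 75, and S1 was at 1.15 with ranks 28 and 29. Over the 138 genes, longer exons went with fewer reads, with a Spearman correlation of -0.345 in replicate 1 and -0.383 in replicate 2, a description across genes that share libraries.

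Genes that act with these proteins were read at their own levels. Of the genes for L11, the partner of L5 on 5S rRNA, rpl1101 had 556.5 ± 16.1 CPM and rpl1102 950.1 ± 46.2, and rpl1102 was higher in replicate 1 (log2 0.10, adjusted p = 5.54e-06, exact binomial test). The 5S RNP assembly factor genes rrs1 and rpf2 were at 19.5 ± 1.04 and 13.2 ± 1.16 CPM. The chaperone genes rrb1, for L3 in budding yeast, and acl4, for L4 in budding yeast, were at 22.4 ± 2.53 and 6.77 ± 1.44 CPM. Of 6 such genes with a feature, 1 (rpl1102) was called between the libraries. The 7 genes listed for regulators of ribosomal protein genes and for S6 or related kinases (fhl1, sfp1, rrn7, tbp1, psk1, sck1 and sck2) had between 6.49 and 70.9 CPM, and their adjusted p between the libraries was at least 0.511 (exact binomial test).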

How the data were processed

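Per the study's methods, the authors base-called the direct RNA reads with dorado and aligned them with minimap2. The deposited values are whole-number read counts per feature, treated as estimated counts; rounding changed 0 of them, and they were used as raw counts. Not given in the sources used here are the counting tool, the build and the handling of multi-mapping reads. The deposited header is shifted by 1 cell, so columns were aligned by content. Of 12684 identifiers, 12602 matched RefSeq (ASM294v3).

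Shares had exact Clopper-Pearson 95% intervals. Copies were compared over the 51 families with edgeR 4.0.16 (glmQLFit, glmQLFTest, R 4.3.3), with a library term, totals as offsets, at least 10 reads and Benjamini-Hochberg adjustment. DESeq2 1.42.0 was an alternative. Fisher tests and the exact binomial tests of the copies used R 4.3.3, and the exact binomial test between the libraries used SciPy 1.17.1. With 2 libraries a permutation test of a single value cannot go below p = 0.5. Scripts were tested on simulated data. The named genes were the 10 paralogues, the 3 most uneven and 3 most even other families, and listed partners and regulators. The members, though selected by name alone, and the lists were chosen with earlier results of these data known. Alternatives were scaling, exon length, minimum reads, the library term and leaving out each replicate. Nothing in the labels beyond the replicate number tells the 2 cultures apart.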

Additional observations from a re-analysis of the deposited data

How the results depend on the processing

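All 5 pairs were called under each alternative fitted on both libraries, and the number of called families was 48 with the exon length offset, TMM or DESeq2 scaling and both other minimums, 50 with the exact binomial test and 46 with the DESeq2 Wald test. The test of the copies paired them within each library, and without this replicate block 46 families were called. Leaving out each replicate, an exact binomial test on the 1 library left called 47 to 50 families, with counting error only and no spread between libraries. Per kb of exon or span, the first copy's share was 62.48% for rpl301, 25.93% for rpl401 and 41.99% for rps601, which ended as the lower copy. The coefficient of variation over the 5 proteins was 55.83% per kb, and without the rps1 pair (chosen after seeing the data) it was 9.25% by reads and 20.54% per kb of exon. Over all 77 proteins it was 62.5% per kb of exon and 58.33% per kb of span. Of the 10 genes, 7 were called between libraries under TMM scaling (4.64% of all features) and 6 under that of DESeq2 (4.56%). The 10 genes summed to 6332 CPM of all reads, 16253 without rRNA features and 24079 of protein-coding reads. Counting limits a share to about 1 percentage point either way in each library, and multi-mapping of the rpl301 and rpl302 reads was not tested.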
